A study of Mus musculus with 12 samples.

Results

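Immunoglobulin variable (V) segments are the genes from which the antigen-binding ends of antibodies are built, and they were followed here in poly-A RNA of whole mouse lung. All rows of the deposited gene table with an Ighv, Igkv or Iglv symbol that reached 1 CPM (counts scaled to library size by the authors) in at least 1 of the 12 libraries were taken. That gave 134 of 348 V rows, in a table of 49585 genes. They were 58 of 185 heavy-chain segments on chromosome 12, 73 of 160 kappa segments on chromosome 6 and all 3 lambda segments on chromosome 16. The other 214 rows stayed under 1 CPM everywhere, 104 of them at 0 in every library. The nearest rows outside the minimum were Ighv8-8 and Ighv1-71, each with a highest value of 0.998 CPM, and the nearest inside were Ighv3-5 at 1.01 CPM and Igkv9-129 at 1.05 CPM.

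The libraries came from mice lacking Rgs4, a regulator of G protein signalling (RGS4 KO), and from wild-type (WT) mice, all with the strain label Balb/cJ. The mould Aspergillus fumigatus (Af) was the exposure and phosphate-buffered saline (PBS) its control, in a study of the part Rgs4 plays in asthma. The groups, of 3 libraries each, are RGS4 KO with Af (KO_Af, libraries 12 to 14), WT with Af (WT_Af, 18 to 20), RGS4 KO with PBS (KO_PBS, 9 to 11) and WT with PBS (WT_PBS, 15 to 17). The sources used here do not give how the allele was made, the animals' age, or the route, dose and number of exposures. Nothing in the labels says whether a library was 1 animal, so p-values measure only the spread between these libraries.

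A developing B cell joins 1 V segment to short D and J segments, for the heavy chain, or to a J segment alone, for a kappa or lambda light chain. Each B cell clone therefore carries its own heavy and light V segments, and V segment reads in a tissue are a sum over clones, weighted by how much antibody RNA each cell holds. Plasma cells, which secrete antibody, hold far more of it than resting B cells. Some pairs of segments are known as standard antibodies of the mouse. Ighv11-2 with Igkv14-126 makes the antibody against phosphatidylcholine that is typical of B-1 cells, a self-renewing B cell class of the body cavities that secretes natural IgM. Ighv7-1 with Igkv7-33 makes the T15 type of antibody against phosphorylcholine, a component of some microbial surfaces. In bulk tissue, fewer cells of a type and less RNA per cell cannot be told apart.

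The segments that carry the main results are shown for their last stretch, from GENCODE M21 transcripts on GRCm38. Each is 290 bases on the coding strand, 5′ to 3′. Capitals run from the codon of the conserved second cysteine to the end of the segment, the germline part of the third antigen-binding loop. Ighv11-2 (chr12:114048241-114048530, minus strand) and Igkv14-126 (chr6:67896353-67896642, plus strand) are the B-1 pair, and Igkv14-126 was the highest segment in 9 libraries. Ighv7-1 (chr12:113896408-113896697, minus strand) and Igkv7-33 (chr6:70058632-70058921, minus strand) are the T15 pair, of which Igkv7-33 had the largest fold change. Igkv6-15 (chr6:70406469-70406758, minus strand) held the highest value of any segment in any library. All these stretches lie in the coding part of the last exon.
Ighv11-2: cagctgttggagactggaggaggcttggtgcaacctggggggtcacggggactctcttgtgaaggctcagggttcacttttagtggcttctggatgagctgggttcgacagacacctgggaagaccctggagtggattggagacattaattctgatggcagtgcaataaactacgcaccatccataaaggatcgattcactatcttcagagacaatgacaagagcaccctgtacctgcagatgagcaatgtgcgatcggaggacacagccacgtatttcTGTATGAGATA
Igkv14-126: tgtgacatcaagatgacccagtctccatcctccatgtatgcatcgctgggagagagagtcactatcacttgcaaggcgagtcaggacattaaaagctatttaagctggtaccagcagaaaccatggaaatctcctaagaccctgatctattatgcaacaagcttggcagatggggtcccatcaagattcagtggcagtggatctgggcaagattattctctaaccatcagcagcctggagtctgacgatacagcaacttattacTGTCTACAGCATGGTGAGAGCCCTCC
Ighv7-1: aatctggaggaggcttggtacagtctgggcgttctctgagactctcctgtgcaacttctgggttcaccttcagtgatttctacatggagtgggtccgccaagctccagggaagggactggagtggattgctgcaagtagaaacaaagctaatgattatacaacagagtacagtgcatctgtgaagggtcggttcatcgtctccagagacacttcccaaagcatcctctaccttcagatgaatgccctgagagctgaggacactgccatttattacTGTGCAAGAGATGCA
Igkv7-33: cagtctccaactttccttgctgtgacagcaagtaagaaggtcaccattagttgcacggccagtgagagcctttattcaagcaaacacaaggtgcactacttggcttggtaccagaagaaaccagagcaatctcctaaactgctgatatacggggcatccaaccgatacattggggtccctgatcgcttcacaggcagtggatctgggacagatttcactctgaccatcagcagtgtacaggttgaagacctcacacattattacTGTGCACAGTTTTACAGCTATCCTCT
Igkv6-15: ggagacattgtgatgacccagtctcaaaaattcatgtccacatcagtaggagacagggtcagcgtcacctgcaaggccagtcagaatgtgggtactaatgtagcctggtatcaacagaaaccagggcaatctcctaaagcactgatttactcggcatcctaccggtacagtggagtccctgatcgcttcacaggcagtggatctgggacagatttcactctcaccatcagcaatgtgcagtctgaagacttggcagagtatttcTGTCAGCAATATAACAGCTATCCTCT

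These letters are those of the C57BL/6J reference, while the mice are labelled Balb/cJ, and the effect of strain alleles on the counts was not tested. The cysteine codon was found by the motif TANTNNTGN in the last 60 bases, read on the coding strand only, and the capitals start at its TGN. The motif was present in 130 of 134 members (97.0%) and in 285 of all 348 V rows (81.9%). Many segments resemble each other: 66 of the 134 members had another V row at 95% identity or more over the stretch compared, 29 of them heavy and 35 kappa, and none had an identical one. Ighv11-2 was 98.6% identical to Ighv11-1, which is outside the members. The other nearest rows were at 97.6% for Iglv1 and Iglv2, at 95.2% for Igkv6-15 and Igkv6-13, at 91.0% for Igkv14-126 and Igkv14-111, and at 81.0% for Igkv7-33 and Igkv8-30. Reads shared by such rows are divided by estimation in the authors' counting with RSEM, so levels of single near-identical segments are uncertain. Of the members, 7 are annotated as pseudogenes, 6 heavy and 1 kappa.

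The libraries held 20708884 to 30229446 reads, and 1 read was worth 0.0328 to 0.0480 CPM. V segments took 3636 to 22800 reads per library, or 0.0137% to 0.108% of the library. The lung markers (12 genes, none at 0) summed to 21887 to 41263 CPM. Rgs4 stood at 0.848 to 1.47 CPM in KO_Af against 42.7 to 48.8 CPM in WT_Af, and at 0.571 to 1.10 CPM in KO_PBS against 20.7 to 25.8 CPM in WT_PBS. A pair of libraries stood apart. WT_PBS 17 had the highest summed V level and was the highest library for 74 of the 134 members. WT_Af 18 held 108.8 CPM of Rag1, 13.2 CPM of Rag2 and 57.5 CPM of Dntt, the recombination genes of developing lymphocytes, where no other library passed 0.754, 0.0983 and 0.735 CPM. Its T cell markers (16 genes) summed to 864 CPM, against 91.5 to 268 CPM elsewhere, with 92.4 CPM of Cd8a and 89.7 CPM of Cd4. The part of those cells in the V segment levels of WT_Af 18 was not tested. Group sums, counts of calls and median changes that rest on these libraries are given with and without them.

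Summed over the 134 segments, the V level was 526.8, 332.5 and 547.9 CPM in KO_Af, 747.7, 338.4 and 273.2 CPM in WT_Af, 357.0, 135.1 and 182.6 CPM in KO_PBS, and 299.0, 466.3 and 1077 CPM in WT_PBS. The groups thus averaged 469 ± 119 CPM in KO_Af, 453 ± 257 CPM in WT_Af, 225 ± 117 CPM in KO_PBS and 614 ± 410 CPM in WT_PBS (SD, n = 3 each). KO_PBS was the lowest group and held the lowest pair of libraries, but its highest library (KO_PBS 9) lay above the lowest library of every other group. Libraries of 1 group differed by up to 3.60-fold in WT_PBS and 2.64-fold in KO_PBS, and the 12 libraries by 7.97-fold. Without WT_PBS 17 the WT_PBS mean was 383 CPM, and without WT_Af 18 the WT_Af mean was 306 CPM. Without KO_PBS 9 the KO_PBS mean was 159 CPM.

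The kappa share was similar in all groups. Kappa segments held 65.3 ± 4.24% of the V level in KO_Af, 66.0 ± 3.13% in WT_Af, 66.3 ± 1.86% in KO_PBS and 66.8 ± 0.773% in WT_PBS (SD, n = 3 each). Heavy segments held 21.2% to 29.5% per library and lambda segments 3.80% to 9.35%. The ratio of kappa to lambda ran from 6.82 in WT_Af 19 to 18.0 in KO_PBS 11. It was 7.01 to 8.54 in KO_Af and 10.2 to 13.0 in WT_PBS, and all other groups overlapped. The kappa constant gene Igkc, to which every kappa segment is joined in the mature RNA, followed the kappa V level closely: the ratio of summed kappa V to Igkc was 0.352 ± 0.0174 in KO_Af, 0.323 ± 0.0424 in WT_Af, 0.378 ± 0.0192 in KO_PBS and 0.383 ± 0.0134 in WT_PBS. The lowest ratio, 0.274, was that of WT_Af 18.

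**Figure D1:**
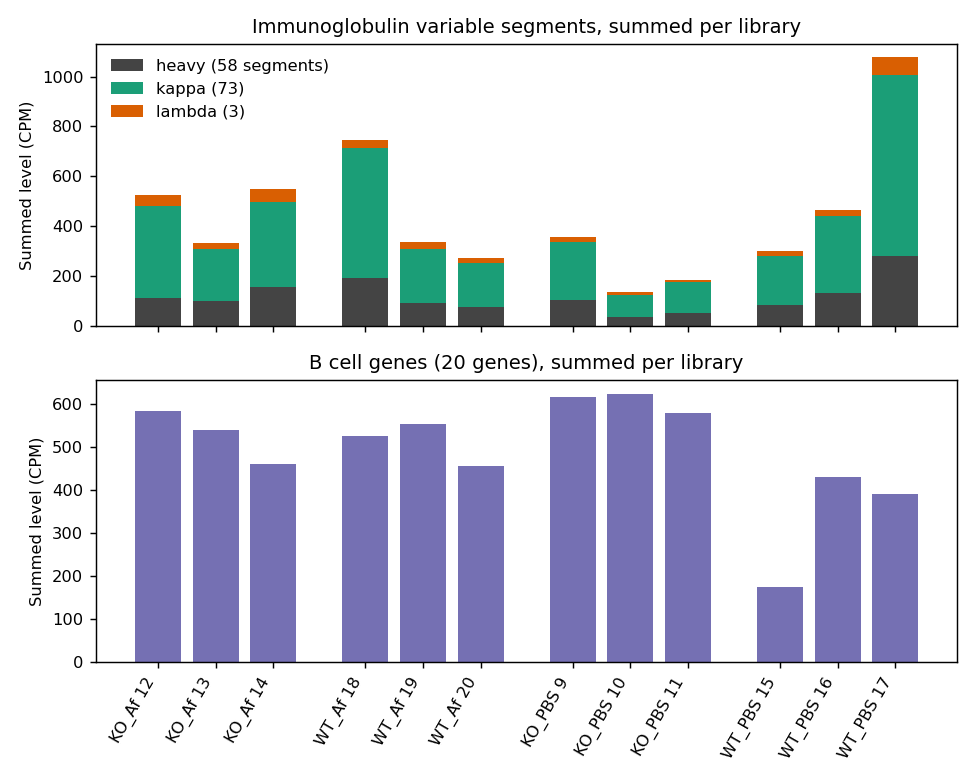
Summed level (CPM) of the 134 variable segments in each of the 12 libraries, split into heavy, kappa and lambda (upper panel), and of 20 B cell genes in the same libraries (lower panel). Bars are single libraries, grouped as KO_Af, WT_Af, KO_PBS and WT_PBS; the V level was lowest in KO_PBS 10 (135.1 CPM) and highest in WT_PBS 17 (1077 CPM), while B cell genes were lowest in WT_PBS 15.

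B cell genes did not follow the V level. Their sum over 20 genes was 528 ± 61.9 CPM in KO_Af, 512 ± 50.9 CPM in WT_Af, 607 ± 23.9 CPM in KO_PBS and 332 ± 137 CPM in WT_PBS (SD, n = 3 each), so the group with the lowest V level had the highest level of B cell genes. KO_PBS libraries ranged from 579 to 624 CPM for these genes, against 176 to 430 CPM in WT_PBS, with no overlap. The plasma cell genes (17 genes) summed to 1338 ± 37.0 CPM in KO_Af, 1273 ± 73.3 CPM in WT_Af, 1008 ± 37.4 CPM in KO_PBS and 1113 ± 63.3 CPM in WT_PBS. That list was higher under Af in both genotypes, in every library. It includes genes of secretion that other lung cells use as well.

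Igkv14-126, the kappa segment of the B-1 pair, had the highest mean level, 42.7 CPM over the 12 libraries. It stood at 54.9, 36.2 and 52.2 CPM in KO_Af, 57.8, 24.7 and 28.1 CPM in WT_Af, 59.7, 10.2 and 24.7 CPM in KO_PBS, and 7.91, 24.6 and 132 CPM in WT_PBS. The groups overlapped throughout, and the highest and lowest libraries were both WT_PBS. It was the highest segment in 9 libraries. The exceptions were WT_Af 18, led by Igkv6-15 with 230.4 CPM, WT_PBS 15, led by Igkv1-110 with 17.3 CPM, and WT_PBS 16, led by Igkv7-33 with 30.5 CPM.

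After Igkv14-126, the mean levels in order were 23.0 CPM for Igkv6-15, 21.1 CPM for Ighv11-2, 20.3 CPM for Igkv1-110, 17.0 CPM for Iglv1, 13.4 CPM for Ighv2-9, 13.1 CPM for Igkv1-117, 11.0 CPM for Iglv2, 10.3 CPM for Igkv10-96 and 9.54 CPM for Igkv1-135. Neighbours in this order were not tested against each other. The place of Igkv6-15 rests on WT_Af 18, since it had 1.53 to 9.02 CPM in the other libraries. Per kilobase of transcript the same 10 segments led, with Igkv1-110 and Ighv11-2 in swapped places, as member transcripts were all short (338 to 501 bases). These 10 held 41.2% of the mean summed level. At the other end, 40 members averaged under 1 CPM and 20 reached 1 CPM in a single library, against 34 that reached it in all 12.

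The first segment of a library took 10.3 ± 0.695% of its V level in KO_Af, 16.1 ± 12.8% in WT_Af, 12.6 ± 4.65% in KO_PBS and 8.20 ± 3.54% in WT_PBS (SD, n = 3 each). The 10 highest of each library took 44.5 ± 3.33% in KO_Af, 47.8 ± 10.4% in WT_Af, 42.2 ± 4.75% in KO_PBS and 38.6 ± 7.60% in WT_PBS. These shares overlapped between all groups. WT_Af 18 was the most concentrated library: Igkv6-15 alone held 30.8% of its V level, its 10 highest held 59.5%, and 6 segments made up its first 50%. In the other libraries 11 to 20 segments were needed for that share. Without WT_Af 18 the 10 highest held 41.9% in WT_Af. The effective number of segments, the inverse of the summed squared shares, was 9.12 in WT_Af 18 and 22.0 to 55.8 in the other libraries, where WT_PBS 15 was the most even.

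**Figure D2:**
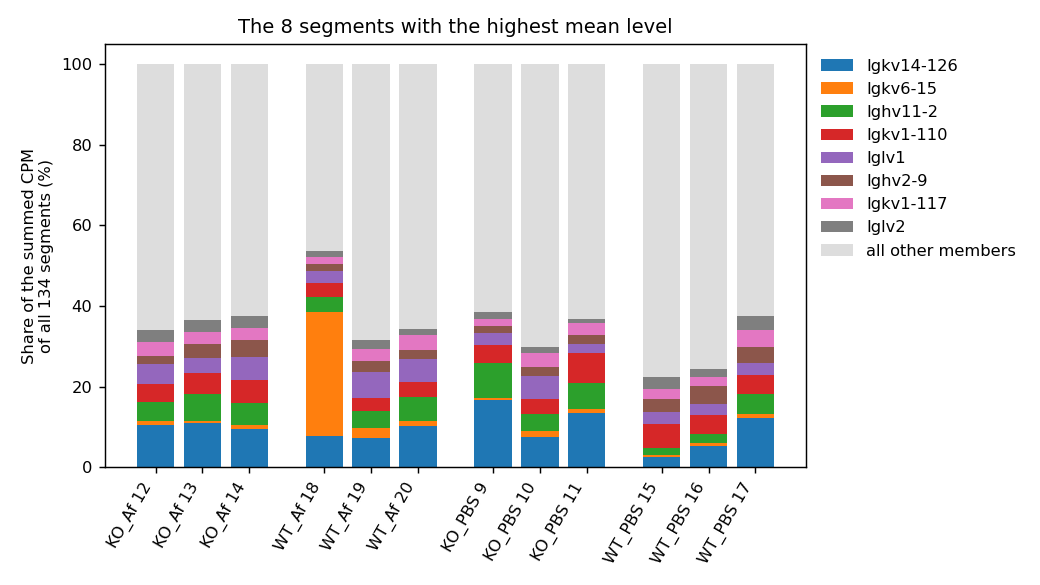
Share (%) of the summed level of all 134 segments taken by each of the 8 segments with the highest mean, 1 bar per library, grouped as KO_Af, WT_Af, KO_PBS and WT_PBS, with all other members in light grey. Igkv6-15 took 30.8% in WT_Af 18, and Igkv14-126 was 2.64% in WT_PBS 15 and 16.7% in KO_PBS 9.

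The number of segments at 1 CPM or more was 84.7 ± 13.3 in KO_Af, 79.7 ± 15.0 in WT_Af, 57.0 ± 17.3 in KO_PBS and 95 ± 18.0 in WT_PBS (SD, n = 3 each), and ran from 42 in KO_PBS 10 to 113 in WT_PBS 17. This count moved with the summed level.

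Single segments were high in single libraries. In WT_Af 18, besides Igkv6-15, 4 related heavy segments stood up: Ighv1-19 with 23.5 CPM, Ighv1-28 with 17.4 CPM, Ighv1-22 with 12.2 CPM and Ighv1-33 with 11.9 CPM. The next library had 1.08, 0.275, 0.661 and 0.661 CPM of them. The 4 are 91.0% to 95.5% identical to each other over the stretch compared, Ighv1-28 and Ighv1-33 are annotated as pseudogenes, and together with Igkv6-15 they held 39.5% of the V level of that library against 0.637% to 2.81% elsewhere. What remained of the V level in WT_Af 18 was 452 CPM, against 329 and 269 CPM in the other WT_Af libraries. Likewise Igkv8-34 had 5.34 CPM in WT_PBS 17 and at most 0.694 CPM elsewhere, and Igkv2-116, an annotated pseudogene, had 4.08 CPM in WT_PBS 16 and at most 0.528 CPM elsewhere. Igkv4-74 reached 33.5 CPM in WT_PBS 17, against at most 5.59 CPM in the other libraries. In all, 9 segments were at least 5-fold higher in 1 library than in the next, 5 of them in WT_Af 18.

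The heavy segment of the B-1 pair, Ighv11-2, moved with Igkv14-126. Ighv11-2 stood at 24.3, 22.3 and 29.4 CPM in KO_Af, 28.4, 14.0 and 16.4 CPM in WT_Af, 30.9, 5.46 and 11.8 CPM in KO_PBS, and 5.13, 11.3 and 54.4 CPM in WT_PBS. The ratio of Igkv14-126 to Ighv11-2 was 1.54 to 2.43 in the 12 libraries, with a median of 1.90, while each segment's level varied by more than 10-fold. Among the 210 pairs of a heavy and a light segment that averaged 3 CPM or more (7 heavy, 30 light), this ratio had the smallest SD on the log2 scale, 0.20, against a median of 0.86 over all pairs and 0.37 for the next, Ighv9-3 with Igkv1-117. All pairs share the same libraries and their summed level, and the ratio is a description without a test. The B-1 pair also joins the heavy and the kappa segment with the highest means. Ratios of lower segments carry more counting error, and its part in the SD was not tested. Together the pair held 14.9% to 17.6% of the V level in KO_Af, 11.4% to 16.3% in WT_Af, 11.6% to 25.4% in KO_PBS and 4.36% to 17.3% in WT_PBS. Neither segment was called in any comparison.

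The T15 pair was less regular. Ighv7-1 stood at 5.90, 0.551 and 6.13 CPM in KO_Af, 2.40, 3.51 and 5.35 CPM in WT_Af, 0.391, 0.483 and 0.571 CPM in KO_PBS, and 1.32, 13.8 and 1.98 CPM in WT_PBS. The ratio of Igkv7-33 to Ighv7-1 was 2.11 to 4.17 in the 9 libraries outside KO_PBS and 0.385 to 1.55 in KO_PBS, where both segments were near or under 0.6 CPM. Its place was 138 of the 210 pairs by the SD of the log2 ratio, 1.0. A further pair known from B-1 cells, Ighv12-3 with Igkv4-91, had a ratio of 2.04 to 8.0 and held 0.958% to 3.16% of the V level.

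**Figure D3:**
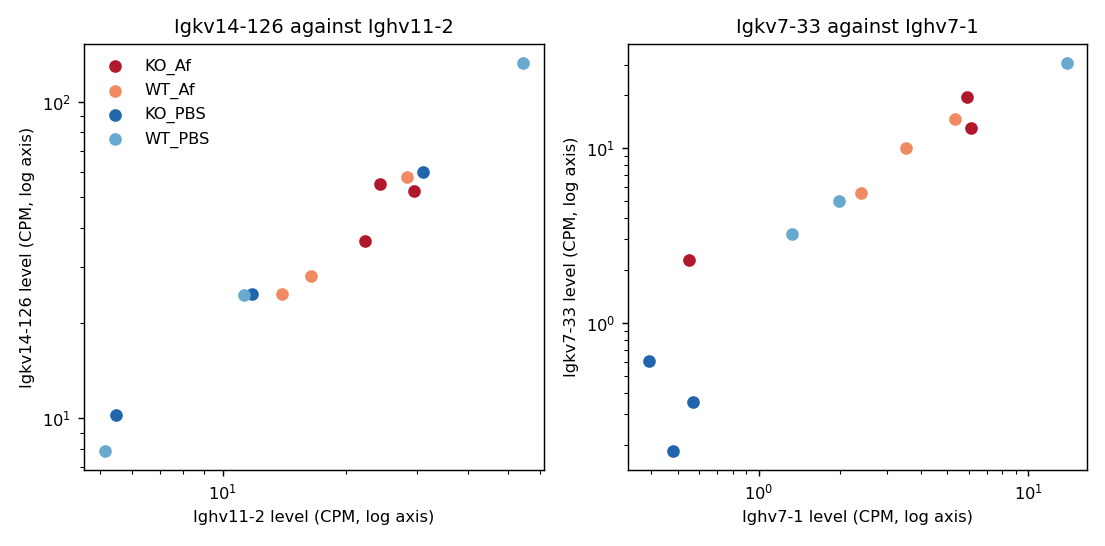
Level (CPM, log axes) of the light segment against the heavy segment of the B-1 pair (left) and of the T15 pair (right), 1 point per library, coloured by group. The points of Igkv14-126 and Ighv11-2 lie close to a line (ratio 1.54 to 2.43), and in the right panel the 3 KO_PBS libraries lie at the low end.

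By family, the segments were spread over many groups of related sequence. The largest share of the mean V level went to the 5 Igkv1 members, with 7.41% to 14.8% per library, and to the 3 Igkv14 members, with 4.93% to 17.8%. The 17 Igkv4 members together held 5.63% to 12.9%. Among heavy families, the 7 Ighv2 members held 3.86% to 7.27% and the 24 Ighv1 members 2.31% to 11.8%. The Ighv1 and Igkv6 families (8 members, 3.83% to 33.6%) had their highest shares in WT_Af 18, and their mean levels rest on that library.

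By position, most of the heavy V level came from the side of the locus nearer to the constant genes, on GRCm38 below the midpoint of the V rows at 114791510 on chromosome 12. That side held 77.7% to 95% of the heavy level per library (median 91.9%), 42 of the 58 heavy members and 108 of the 185 heavy rows. The lowest share was that of WT_Af 18. At the kappa locus, which has segments in both orientations, the plus strand held 30.0% to 58.4% of the level.

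Changes between groups were tested with limma on the log2(CPM + 0.5) scale, where changes of low segments come out too small. Genes entered with 1 CPM in at least 3 libraries. Of the 134 members 100 passed this minimum (37 heavy, 60 kappa and 3 lambda), among 16126 genes tested together. A gene is said to be called where its Benjamini-Hochberg adjusted p over all tested genes was under 0.05. The remaining 34 members reached 1 CPM in at most 2 libraries and were not tested. A segment could pass through the group where it was high, so the counts below are read only beside those of all tested genes. Segments of a library also share its summed V level, so counts over members are not counts of independent observations.

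Under Af, 25 of the 100 tested members were called higher than under PBS in RGS4 KO lungs and 0 were called lower. Of all tested genes 28.7% were called higher and 29.2% lower, so the share called higher was near the background and calls in the other direction were missing. The 25 were 10 heavy, 13 kappa and 2 lambda segments, with log2 fold changes of 0.64 to 3.40 (median 1.44). Over all 100 members 89 changes were positive and the median was 0.73, against -0.02 over all tested genes. In 33 members all 3 KO_Af libraries lay above all 3 KO_PBS libraries, against 31.1% of all tested genes. The count depended on single libraries: it was 15 without KO_Af 12, 16 without KO_Af 14, 11 without KO_PBS 10 and 16 without KO_PBS 11. In these fits 49.5% to 59% of all tested genes were called in either direction, against 57.9% with all libraries. The 10 segments called in every such fit and under every alternative were Ighv2-2, Ighv3-1, Ighv3-8, Ighv6-3, Igkv1-88, Igkv7-33, Igkv8-16, Igkv16-104, Iglv1 and Iglv2.

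Igkv7-33, the kappa segment of the T15 pair, had the largest change. It stood at 19.5, 2.30 and 13.0 CPM in KO_Af, against 0.604, 0.186 and 0.352 CPM in KO_PBS (log2 fold change 3.40 ± 0.80 SE, limma adjusted p = 0.00346). The groups did not overlap, but KO_Af 13 was far below the other KO_Af libraries. In WT it had 5.57, 10.1 and 14.6 CPM under Af, against 3.23, 30.5 and 4.96 CPM under PBS (log2 0.21 ± 0.80, limma adjusted p = 0.843). The WT groups overlapped, and WT_PBS 16 held the highest value of all. Its partner Ighv7-1 missed the threshold in KO (log2 1.86 ± 0.78, limma adjusted p = 0.0586).

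Igkv1-88, a kappa segment, had the smallest p. It stood at 11.4, 7.67 and 14.4 CPM in KO_Af, against 2.38, 1.26 and 1.05 CPM in KO_PBS (log2 2.51 ± 0.48, limma adjusted p = 9.17e-04). Every KO_Af library lay at least 3-fold above every KO_PBS library. In WT the groups overlapped, at 5.42, 3.18 and 2.62 CPM under Af against 1.74, 2.91 and 9.64 CPM under PBS (log2 -0.06 ± 0.48, limma adjusted p = 0.923). Both common lambda segments rose in KO as well. Iglv1 stood at 26.7, 12.4 and 30.6 CPM in KO_Af, against 10.1, 7.69 and 4.13 CPM in KO_PBS (log2 1.59 ± 0.44, limma adjusted p = 0.00921). Iglv2 stood at 16.0, 10.2 and 15.7 CPM in KO_Af, against 5.54, 2.16 and 1.76 CPM in KO_PBS (log2 2.10 ± 0.55, limma adjusted p = 0.00685). Neither pair of groups overlapped. Iglc1, the constant gene that pairs with Iglv1, also rose in KO (log2 1.41 ± 0.39, limma adjusted p = 0.00923). Among heavy segments, Ighv2-2 was the most even, with 5.03, 5.28 and 4.70 CPM in KO_Af against 1.81, 1.3 and 1.49 CPM in KO_PBS (log2 1.44 ± 0.30, limma adjusted p = 0.00148). Ighv3-8 rose to 4.48, 4.78 and 5.86 CPM in KO_Af, against 2.13, 0.669 and 0.703 CPM in KO_PBS (log2 1.83 ± 0.43, limma adjusted p = 0.00355).

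**Figure D4:**
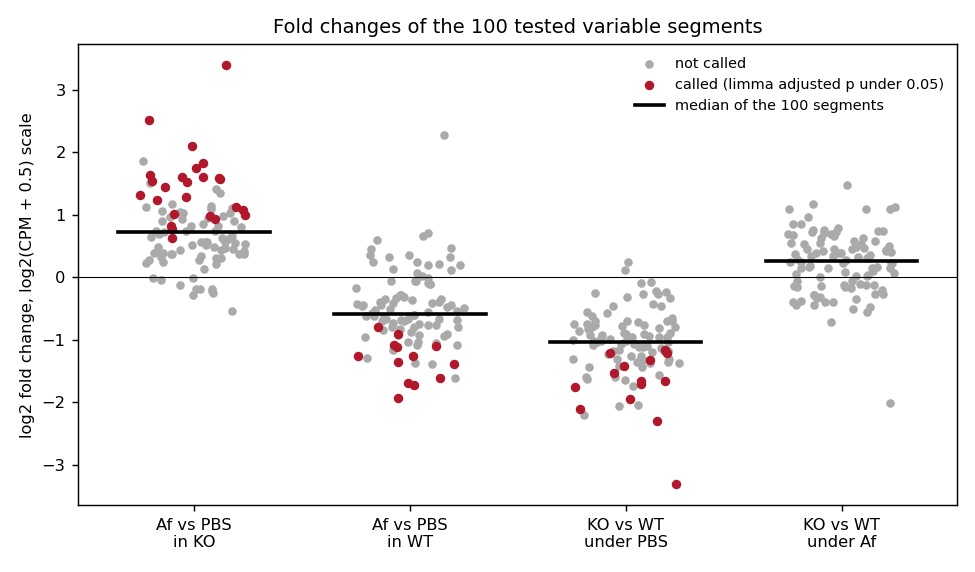
Log2 fold change, on the log2(CPM + 0.5) scale, of the 100 tested variable segments in Af against PBS in KO and in WT, and in KO against WT under PBS and under Af; each point is a segment, red where called by limma, and the bar is the median. Medians were 0.73, -0.59, -1.04 and 0.26, and calls were 25 higher, 13 lower, 14 lower and 0.

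In WT lungs 0 of the 100 members were called higher under Af than under PBS and 13 were called lower. Of all tested genes 26.2% were called higher and 25.6% lower, so both shares of the members lay below the background. The 13 were 6 heavy and 7 kappa segments, with log2 fold changes of -1.93 to -0.80. Over all members 19 changes were positive and the median was -0.59, against -0.02 over all genes. The median was -0.24 without WT_PBS 17, -0.70 without WT_Af 18 and -0.37 without both. In 14 members all WT_Af libraries lay below all WT_PBS libraries, against 32.7% of all tested genes. The count and its split depended on single libraries: 1 was called higher and 15 lower without WT_Af 18, 3 higher and 6 lower without WT_PBS 17, 2 higher and 6 lower without both, and 2 higher and 8 lower without WT_Af 20. The count was 26, all lower, without WT_PBS 15. In these fits 38.7% to 46.9% of all tested genes were called in either direction, against 51.8% with all libraries. Segments called in every fit and alternative that tested them were Ighv10-1, Ighv14-1, Igkv4-53, Igkv4-79, Igkv6-20 and Igkv6-23. Of these, Ighv14-1 was tested in only 9 of the 12 fits without 1 library, as it missed the minimum without any 1 of the WT_PBS libraries.

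Ighv14-1 had 0.864, 0.491 and 0.374 CPM in WT_Af, against 3.93, 1.3 and 4.39 CPM in WT_PBS (log2 -1.68 ± 0.33, limma adjusted p = 0.00132). The groups did not overlap, and both KO groups stood between 0.386 and 0.604 CPM. Ighv14-1 reached 1 CPM in the 3 WT_PBS libraries alone, so it entered the test through the group where it was high. Its lower level in the other groups was thus partly fixed by that minimum. Igkv4-53 had 2.45, 1.24 and 1.09 CPM in WT_Af, against 3.48, 7.38 and 8.69 CPM in WT_PBS (log2 -1.71 ± 0.38, limma adjusted p = 0.00270). Igkv6-20 had 1.97, 1.31 and 0.637 CPM in WT_Af, against 2.28, 7.20 and 6.19 CPM in WT_PBS (log2 -1.61 ± 0.41, limma adjusted p = 0.00638). These are segments of low level, and all of them were highest in WT_PBS. The change of Ighv6-6 was larger (log2 -1.93 ± 0.62, limma adjusted p = 0.0217) but followed the libraries, with 9.49 CPM in WT_PBS 17, 4.60 CPM in WT_PBS 16 and 0.704 CPM in WT_PBS 15; it ran from -3.15 to -1.26 over the alternatives.

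Under PBS, 14 of the 100 members were called lower in RGS4 KO than in WT lungs and 0 higher, where 1.9% of all tested genes were called higher and 1.66% lower. The 14 were 8 heavy and 6 kappa segments, with log2 fold changes of -3.31 to -1.16. Over all members 2 changes were positive and the median was -1.04, against 0.01 over all genes. Without WT_PBS 17 the median was -0.66. In 33 members every KO_PBS library lay below every WT_PBS library, against 15.7% of all tested genes. The calls depended on single libraries. Leaving out KO_PBS 10 left 0 calls, leaving out KO_PBS 11 left 1 and leaving out KO_PBS 9 left 6. In these fits 0.809%, 1.05% and 1.11% of all tested genes were called in either direction, against 3.55% with all libraries. Among WT libraries the count was 7 when WT_PBS 16 was left out, 3 when WT_PBS 17 was, and 7 when WT_Af 19 was. There 2.66%, 1.52% and 2.38% of all tested genes were called. The count rose to 21 without KO_Af 12, 21 without WT_PBS 15 and 17 without KO_Af 13, with 7.7%, 2.06% and 3.93% of all tested genes. It was 2 without both WT_PBS 17 and WT_Af 18, with 0.819% of all tested genes, and no member was called in every fit. KO and WT libraries also differ in library number (9 to 14 against 15 to 20), so genotype and any order of handling cannot be told apart. Within each genotype the PBS numbers likewise lie below the Af numbers.

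Igkv4-53 had the smallest p, with 1.39, 0.557 and 0.703 CPM in KO_PBS against 3.48, 7.38 and 8.69 CPM in WT_PBS (log2 -2.30 ± 0.38, limma adjusted p = 0.00871). The call held in all fits but the one without KO_PBS 10, where its adjusted p was 0.0516. Ighv1-14, an annotated pseudogene, had 1.35, 0.409 and 0.571 CPM in KO_PBS against 2.69, 2.60 and 2.98 CPM in WT_PBS (log2 -1.42 ± 0.24, limma adjusted p = 0.0110). Its WT_PBS values were the most even of these. Ighv14-1 was lower too, with 0.604, 0.446 and 0.484 CPM in KO_PBS against 3.93, 1.3 and 4.39 CPM in WT_PBS (log2 -1.75 ± 0.33, limma adjusted p = 0.0155). It passed the minimum through WT_PBS alone, so the direction of this difference was partly fixed in advance. The same holds for Ighv1-78, also called lower here, which reached 1 CPM in WT libraries alone. Ighv2-9, the second heavy segment by level, had 6.61, 2.90 and 4.09 CPM in KO_PBS against 9.27, 20.7 and 42.7 CPM in WT_PBS (log2 -2.11 ± 0.49, limma adjusted p = 0.0382). Igkv7-33 was also lower (log2 -3.31 ± 0.80, limma adjusted p = 0.0447), a call lost in 9 of 12 fits without 1 library, over which and the other alternatives the change ran from -5.05 to -2.38. By contrast Igkv14-126 had a log2 change of -0.26 ± 0.84 and Ighv11-2 one of -0.22 ± 0.73 (limma adjusted p = 0.919 and 0.921), and both were positive without KO_PBS 10 or WT_PBS 17.

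**Figure D5:**
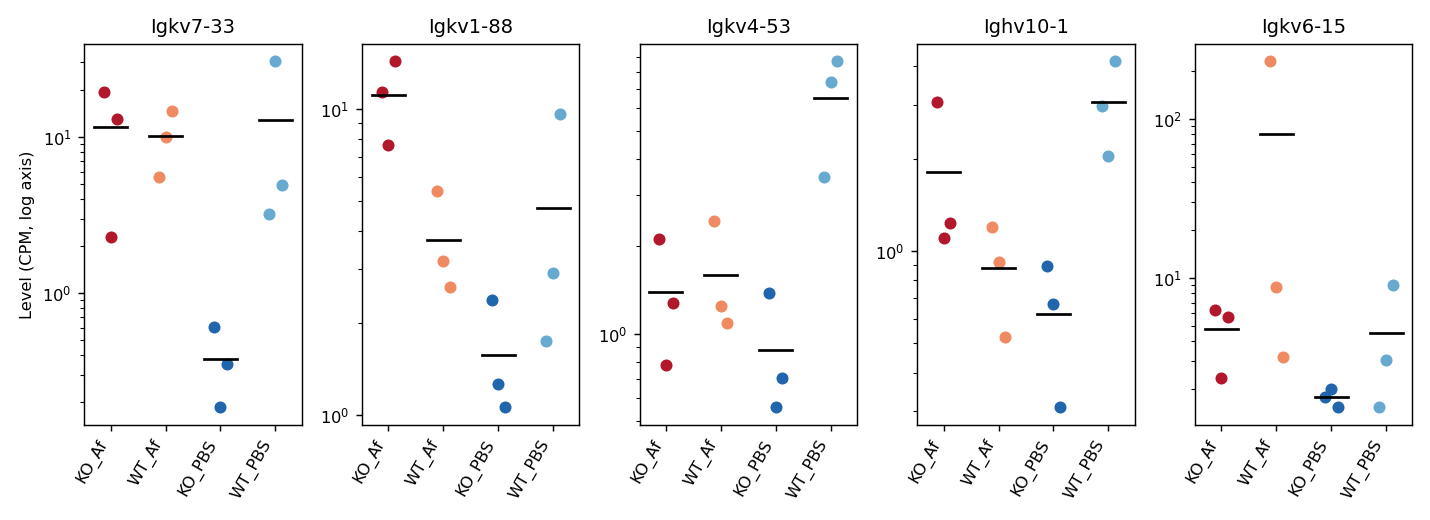
Level (CPM, log axes) of 5 segments in each library of KO_Af, WT_Af, KO_PBS and WT_PBS, with the group mean as a line. Igkv7-33 and Igkv1-88 have KO_PBS as the group with the lowest mean, Igkv4-53 and Ighv10-1 have WT_PBS as the group with the highest mean, and Igkv6-15 has a single high point in WT_Af 18.

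Under Af the genotypes did not separate. With limma 0 of 100 members were called between KO_Af and WT_Af, where 0.0868% of all tested genes were called. Their smallest adjusted p was 0.351, and 6 had an unadjusted p under 0.05, against 11.2% of all tested genes. On the recovered reads edgeR also called 0, where it called 0.0806% of all tested genes. The median change was 0.26 and 69 of 100 were positive. Without WT_Af 18 the median was 0.44. In 7 members all KO_Af libraries lay above all WT_Af libraries, against 7.66% of all tested genes. Averaged over both exposures, 2 members were called lower in KO, Ighv1-78 (log2 -1.21, limma adjusted p = 0.0373) and Igkv4-53 (log2 -1.23, limma adjusted p = 0.0376), where 1.12% of all tested genes were called lower. Ighv1-78 was at 0 to 0.391 CPM in KO_PBS and reached 1 CPM in only 3 libraries, all of them WT. It thus entered the test through the genotype where it was high, so its lower level in KO was partly fixed by that minimum. Ighv1-78 was called in 3 of the 9 fits without 1 library that tested it, and Igkv4-53 in 3 of 12.

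The difference between the genotypes in their change under Af was tested as an interaction. Of the 100 members 0 were called by limma, where 0.0062% of all tested genes were called. The smallest limma adjusted p of a member was 0.0957, for Ighv10-1. With limma 40 members had an unadjusted p under 0.05, against 10.9% of all tested genes. On the recovered reads edgeR called 0 members, where it called 0.0062% of all tested genes. The interaction was positive in 95 of 100 members, with a median of 1.39 on the log2 scale, against -7.7e-05 over all tested genes. The members share the same libraries and their summed level, so these are not 100 separate observations. The median was 0.93 without WT_PBS 17, 1.56 without WT_Af 18 and 1.09 without both. A difference between KO and WT in the change under Af was therefore not shown for any single segment after adjustment. In 3 segments, Ighv5-9, Ighv6-3 and Ighv10-1, all Af libraries lay above all PBS libraries in KO and below them in WT, against 0.223% of all tested genes.

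Of the 13 tested constant regions and J chain, 3 were called higher and 1 lower under Af in KO, and 1 was called lower both under Af in WT and in KO against WT under PBS. Of all tested genes 28.7% were called higher and 29.2% lower under Af in KO. Leaving out 1 library gave 2 to 5 constant genes called higher and 0 to 2 lower under Af in KO. In these fits 49.3% to 59% of all tested genes were called in either direction. The shares called lower were 25.6% under Af in WT and 1.66% in KO against WT under PBS. The median log2 change of the 13 was 0.92 under Af in KO, 0.18 under Af in WT, -0.72 in KO against WT under PBS and -0.02 in KO against WT under Af. Ighm, the constant region of IgM, stood at 1304, 1115 and 1667 CPM in KO_Af, 2856, 922 and 775 CPM in WT_Af, 898, 327 and 446 CPM in KO_PBS, and 712, 982 and 2768 CPM in WT_PBS. It was the highest constant gene in all libraries and missed the threshold for Af in KO (log2 1.40 ± 0.57, limma adjusted p = 0.0512). Igkc (log2 1.23 ± 0.56, limma adjusted p = 0.0810) and Jchain, which links IgM and IgA into polymers (log2 0.95 ± 0.67, limma adjusted p = 0.246), were likewise not called. In KO against WT under PBS the changes were -1.29 for Ighm, -1.35 for Igkc and -1.70 for Jchain, with limma adjusted p of 0.263, 0.236 and 0.211. Summed V over summed constant regions was 0.192 ± 0.00865 in KO_Af, 0.174 ± 0.0217 in WT_Af, 0.193 ± 0.0135 in KO_PBS and 0.212 ± 0.00447 in WT_PBS (SD, n = 3 each).

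Ighg1, the constant region of IgG1, had the clearest change of the constant genes. It stood at 33.3, 13.3 and 25.8 CPM in KO_Af, 28.8, 66.4 and 37.7 CPM in WT_Af, 8.60, 10.4 and 6.95 CPM in KO_PBS, and 87.2, 103 and 55.8 CPM in WT_PBS. WT_PBS was highest and KO_PBS lowest, with no overlap between genotypes under PBS (log2 -3.14 ± 0.36, limma adjusted p = 0.00162). Ighg1 rose under Af in KO (log2 1.35 ± 0.36, limma adjusted p = 0.00738). In WT it fell, at the threshold (log2 -0.93 ± 0.36, limma adjusted p = 0.0491), and that call was lost in 8 of 12 fits without 1 library. Ighd, the constant region of IgD on resting B cells, fell under Af in KO (log2 -1.49 ± 0.46, limma adjusted p = 0.0153). That call was lost without KO_Af 14.

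Genes of plasma cells and B cells, from lists made for this tissue, were read beside the V segments. Of 16 tested plasma cell genes 10 were called higher and 2 lower under Af in KO, and 9 higher and 2 lower in WT, with medians of 0.76 in KO and 0.49 in WT. The shares of all tested genes were 28.7% higher and 29.2% lower in KO, and 26.2% higher and 25.6% lower in WT. Mzb1, a chaperone of antibody assembly, rose in KO (log2 2.21 ± 0.46, limma adjusted p = 0.00160) and in WT (log2 1.67 ± 0.46, limma adjusted p = 0.010). Derl3, of the protein quality control of the endoplasmic reticulum, rose in KO (log2 1.88 ± 0.31, limma adjusted p = 3.07e-04) and in WT (log2 1.03 ± 0.31, limma adjusted p = 0.0145). Mzb1 and Derl3 thus rose in WT, where limma called 0 V segments higher with all libraries. It called 1 higher without WT_Af 18, 2 without WT_Af 20 and 3 without WT_PBS 17. Of 20 B cell genes 1 was called higher and 5 lower under Af in KO, 7 higher and 2 lower under Af in WT, and 4 higher and 0 lower in KO against WT under PBS. The shares of all genes under Af are those given above, and the B cell genes called higher in WT numbered 4 to 11 when 1 library was left out. In KO against WT under PBS 1.9% of all genes were called higher, and the 4 calls fell to 0 without WT_PBS 17 or without any 1 of the KO_PBS libraries and to 2 without WT_Af 19. In those fits 0.809% to 2.38% of all genes were called in either direction, against 3.55% with all libraries. The calls rose to 6 without KO_Af 12 and to 7 without WT_PBS 16, with 7.7% and 2.66% of all genes. T cell markers were called higher under Af in WT for 13 of 16 genes, against 26.2% of all genes, and in KO for 0 of 16, against 28.7%. In WT 7 were called without WT_Af 18 and 3 without WT_PBS 15, and their part in the V segment results was not tested. The comparisons share libraries and are not independent of each other.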

How the data were processed

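Poly-A RNA from mouse lung was prepared with a Qiagen RNEasy kit and an Illumina TruSeq kit, per the labels' protocols. Per the submitters' processing notes the authors used STAR 2.7.6a, RSEM 1.3.0 and cutadapt 1.18, and the builds listed are GRCm38 and GRCh38, with no use stated. The deposited values are a signal per gene and library on a linear scale, CPM with TMM (trimmed mean of M-values) scaling, by the name the authors gave the table. RSEM divides reads among similar segments by estimation. The sources used here do not say whether strand was used, so overlapping and antisense rows are uncertain. Dividing by the value of 1 read gave whole numbers throughout (100%, tolerance 0.01), and these are called the recovered reads. For segments that share reads they rest on the RSEM estimates, so they are estimated counts. A count of 0 allows up to 3 reads (0.0983 to 0.144 CPM), for counting error only.

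Members and gene lists were chosen with earlier results of these data known. Since the values are CPM, the test was limma 3.58.1 (R 4.3.3, trend on) on log2(CPM + 0.5), in 1 fit over the 4 groups with Benjamini-Hochberg adjustment over 16126 genes (8 residual degrees of freedom). No replicate was a copy of another of its group: the chi-square per degree of freedom within groups was 10.7 or more. The script was first checked on simulated counts with planted changes. Identity between segments was taken by global alignment of the stretches with edlib 1.3.9.post1 and coordinates from GENCODE M21. Alternatives were other pseudocounts, filters, plain CPM, fits of the compared groups alone, edgeR 4.0.16 on the recovered reads and leaving out each library. A fit without WT_PBS 17 and WT_Af 18 and edgeR with a minimum in 1 library were added after seeing the data.

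Segments are named by rule: the 10 highest by mean, the 3 highest per locus, the highest per library, the 10 with the highest ratio of top library to median, and up to 10 calls per direction and comparison by smallest p. Named outside it, after their values were seen, were Ighv5-9, Ighv7-1, Ighv12-3 and Igkv4-91. The same holds for Rag1, Rag2, Dntt, Cd4, Cd8a, the segments at the edge of the minimum and the nearest rows given for identity.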

Additional observations from a re-analysis of the deposited data

Results flagged for a closer look

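In 3 segments all Af libraries lay above all PBS libraries in KO and below all PBS libraries in WT, against 0.223% of all tested genes with that pattern. Ighv6-3 stood at 1.38, 2.76 and 3.66 CPM in KO_Af, 1.49, 0.917 and 0.711 CPM in WT_Af, 0.640, 0.632 and 1.01 CPM in KO_PBS, and 1.53, 2.0 and 3.97 CPM in WT_PBS, with an interaction of 2.15 ± 0.48 on the log2 scale (limma adjusted p = 0.127). Ighv10-1 stood at 3.07, 1.10 and 1.23 CPM in KO_Af, 1.20, 0.917 and 0.524 CPM in WT_Af, 0.888, 0.669 and 0.308 CPM in KO_PBS, and 2.98, 2.04 and 4.16 CPM in WT_PBS, with an interaction of 2.33 ± 0.49 (limma adjusted p = 0.0957). Ighv5-9 stood at 0.787, 2.07 and 0.810 CPM in KO_Af, 0.960, 1.11 and 0.824 CPM in WT_Af, 0.320, 0.483 and 0.571 CPM in KO_PBS, and 1.16, 1.13 and 2.13 CPM in WT_PBS, with an interaction of 1.17 ± 0.40 (limma adjusted p = 0.298). None of the 3 interactions passed the threshold, and these are segments of low level.

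Outside the V segments, WT_Af 18 held 108.8 CPM of Rag1, 13.2 CPM of Rag2 and 57.5 CPM of Dntt, against at most 0.754, 0.0983 and 0.735 CPM in the other libraries, PBS libraries included. These genes act while lymphocytes assemble their receptor genes.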

How the results depend on the processing

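The count of V segments called for Af in KO was 25 of 100, and 15 of 134 without a filter on low values. Of all tested genes 57.9% and 31.8% were called in these fits. For Af in WT the count was 13 of 100, but 21 of 100 with edgeR on the recovered reads (1 higher, 20 lower). It was 24 of 134 with edgeR and a minimum in 1 library (4 higher, 20 lower), and 8 of 91 without both WT_PBS 17 and WT_Af 18. The shares of all tested genes were 51.8%, 51.5%, 49.4% and 38.7%. For KO against WT under PBS the count was 14 of 100, but 5 of 134 without a filter and 2 of 91 without both libraries. The shares of all tested genes were 3.55%, 1.26% and 0.819%. Averaged over exposures the count was 2, but 0 without a filter, 1 with edgeR under either minimum and 0 without both libraries. There 0.538% to 2.16% of all tested genes were called. Leaving out 1 library gave 11 to 30 calls for Af in KO, 9 to 26 for Af in WT, 0 to 21 for KO against WT under PBS, 0 to 3 averaged and 0 to 2 for the interaction, where the 2 came without KO_Af 13. In the same order, 49.3% to 59%, 44% to 60.9%, 0.809% to 7.7%, 0.641% to 5.06% and 0% to 1.16% of all tested genes were called. The cause of these moves was not tested. Without Igkv14-126 the share of the 10 highest segments was 40.7% in KO_Af and 36.2% in KO_PBS. In KO against WT under PBS, Ighv11-2 turned to 0.35 without KO_PBS 10 and to 0.70 without WT_PBS 17 or without both libraries, and Igkv14-126 to 0.36, 0.80 and 0.80; over fits without 1 library the lowest values were -0.95 for Ighv11-2 and -1.19 for Igkv14-126. No paired analysis was possible because each library number occurs once and no number is shared between groups. Segments with few reads limit precision: 3636 V reads in KO_PBS 10 are spread over 131 segments.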
